A study of Mus musculus with 4 samples.

Results

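BCL2 family genes hold cells alive or start their death. Their signals were followed in arrays of blood stem and progenitor cells from mice labelled wild-type or Hif1a-/-. The set was chosen by gene symbol and names 10 genes, of which 9 were found among the 19938 genes measured. They are the pro-survival genes Bcl2, Bcl2l1, Mcl1 and Bcl2l2, the BH3-only genes Bcl2l11, Bid, Bmf and Bbc3, and the effector Bak1. The other effector, Bax, has no values here because no probe set carried its symbol alone. Each measured member had 1 probe set, and all 9 passed a filter that removed the 40% of genes with the lowest mean signal.

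The cells were bone marrow cells of C57BL/6 (B6) mice aged 8 weeks, sorted as Lin-c-Kit+Sca-1+ and labelled as haematopoietic stem cells. This sort gate also takes in multipotent progenitors. The wild-type group (WT) and the group labelled Hif1a-/- each held 2 arrays of separate biological replicates, numbered 1 and 2 in both groups, and neither group was given a treatment in the labels. The labels do not give the deleted part of Hif1a, the means or time of deletion, or the number of mice behind an array. Hif1a, the oxygen-regulated subunit of HIF-1, read 10.37 and 10.99 in WT and 10.58 and 10.64 in the group labelled Hif1a-/-, so its signal did not separate the groups. A probe set may lie outside a deleted part, and the arrays are therefore named by their labels. Values are log2 signals, in which a difference of 1 is a doubling, and levels of different genes are not compared.

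The BCL2 family controls the mitochondrial route to apoptosis. Pro-survival members bind and hold back the effectors BAX and BAK, which otherwise open the outer mitochondrial membrane and release cytochrome c. BH3-only proteins sense stress or loss of growth factors and free or activate the effectors. In the blood system, mouse stem cells are known to need MCL1, mature lymphocytes BCL2 and developing red cells BCL-XL.

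No BCL2 family gene passed the test between the genotypes, whereas 3 of the 9 passed between the arrays numbered 2 and those numbered 1. Bcl2 was lower in both arrays numbered 2, and Mcl1 and Bak1 were higher in both. In limma with Benjamini-Hochberg adjustment over all genes and a threshold of 0.05, 0.0% of all genes were called between the genotypes and 6.74% between the numbers (3.81% higher and 2.93% lower). Of the 9 members, 2 were called higher and 1 lower in number 2. These counts rest on single arrays. None of the 3 calls held with either array numbered 1 left out, and calls over all genes fell then too. With an array numbered 2 left out, more members and more of all genes were called. Each such fit leaves 1 array in a number, so these shifts are not particular to the members. The labels do not say what a shared number marks, and each number holds 1 array per genotype.

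**Figure D1:**
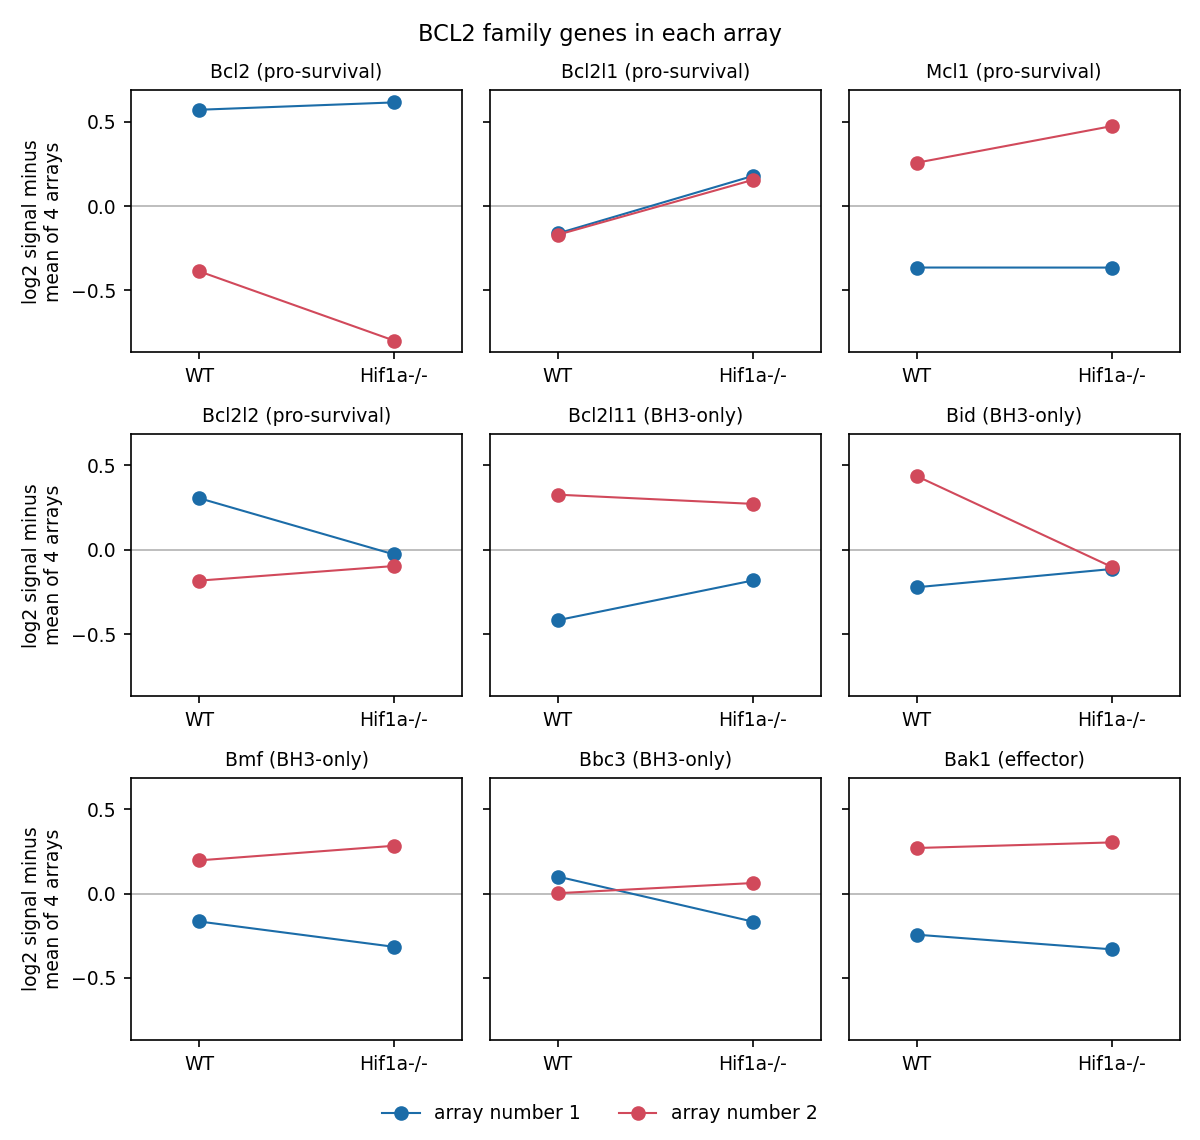
Log2 signal of each BCL2 family gene minus its mean over the 4 arrays (y axis), by genotype label (x axis). Each point is 1 array, and lines join the 2 arrays of the same number without implying that they are pairs. Bcl2 is higher in number 1, Mcl1, Bak1, Bmf and Bcl2l11 are higher in number 2, and Bcl2l1 is the gene whose arrays part by genotype.

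Among the pro-survival genes, Bcl2 showed the widest spread. Bcl2, the founding member of the family, read 11.88 and 10.92 in WT arrays 1 and 2, against 11.92 and 10.51 in arrays 1 and 2 labelled Hif1a-/-. Both arrays numbered 1 were high and both numbered 2 were low, whatever the genotype label. The number 2 arrays were lower by 2.27-fold (−1.19 log2 units, SE 0.16, 95% interval −1.59 to −0.78, adjusted p = 0.0146 in limma). The fall was −0.96 within WT and −1.41 within the group labelled Hif1a-/-. Between genotypes the groups overlapped, with means of 11.40 ± 0.68 in WT and 11.21 ± 1.00 in the group labelled Hif1a-/- (SD, n = 2 each). That difference was −0.18 (SE 0.61, 95% interval −1.89 to 1.52), an interval wide enough to hold either direction. This fit had no term for array number. With a block for number the SE was 0.16, and the difference was not called. The call between numbers ended with the WT array numbered 1 left out (adjusted p = 0.0803), with its counterpart labelled Hif1a-/- left out (0.0756), under median centring (0.0720) and with every probe set tested (0.0832) in limma.

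Mcl1 moved opposite to Bcl2 between the numbers. Mcl1, a short-lived protein that holds back BAK and binds BIM and NOXA, read 11.10 and 11.72 in WT arrays 1 and 2, with 11.10 and 11.94 in those labelled Hif1a-/-. The arrays numbered 1 were nearly equal and both numbered 2 lay above them. The rise was 0.73 log2 units (1.66-fold, SE 0.12, 95% interval 0.42 to 1.04, adjusted p = 0.0281 in limma), with 0.62 within WT and 0.84 within the group labelled Hif1a-/-. Between genotypes it differed by 0.11 (SE 0.38, 95% interval −0.96 to 1.18) with overlapping groups. The call between numbers ended under quantile normalization (adjusted p = 0.0636), cyclic loess (0.0625), with every probe set tested (0.114), with the WT array numbered 1 left out (0.246) and with its counterpart labelled Hif1a-/- left out (0.210) in limma.

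Because Bcl2 and Mcl1 hold similar roles and parted in direction, their promoter windows are shown, from RefSeq on build GRCm38.p6 and each running from 250 bases before to 50 after a transcript start. They are the sense strand, 5′ to 3′. The Bcl2 window is chr1:106714241-106714540 on the minus strand and the Mcl1 window is chr3:95658471-95658770 on the plus strand. Neither holds the letters ACGTG or GCGTG on either strand, the core that HIF-1 is known to bind, so neither has capitals.
Bcl2: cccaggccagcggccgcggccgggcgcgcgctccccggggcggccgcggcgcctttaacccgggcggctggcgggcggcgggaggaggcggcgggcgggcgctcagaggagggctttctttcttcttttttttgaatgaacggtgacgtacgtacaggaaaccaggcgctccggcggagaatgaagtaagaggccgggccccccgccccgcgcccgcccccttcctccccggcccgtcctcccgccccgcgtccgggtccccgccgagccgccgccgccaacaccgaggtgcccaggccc
Mcl1: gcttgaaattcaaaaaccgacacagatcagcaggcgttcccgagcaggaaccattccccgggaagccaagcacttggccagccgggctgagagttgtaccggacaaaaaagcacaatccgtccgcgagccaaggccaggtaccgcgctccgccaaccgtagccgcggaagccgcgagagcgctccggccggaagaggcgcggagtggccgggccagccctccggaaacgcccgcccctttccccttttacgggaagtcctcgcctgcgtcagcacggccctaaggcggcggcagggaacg

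Bcl2l1 was the one member whose arrays parted by genotype. Bcl2l1, which encodes BCL-XL and a shorter pro-death isoform, read 8.57 in either WT array and 8.91 and 8.89 in the group labelled Hif1a-/-. Both values of the group labelled Hif1a-/- exceeded both WT values, as they did for 16.1% of all genes (8.33% were lower without overlap, and 24.5% parted in either direction). The difference was 0.33 log2 units (1.26-fold, SE 0.11, 95% interval 0.04 to 0.63), with 0.34 in number 1 and 0.33 in number 2. It did not pass over all genes (adjusted p = 0.9998 in limma, unadjusted p = 0.0346). It was 1 member of 9 with an unadjusted p under 0.05, against 0.727% of all genes. Leaving 1 array out could not turn its direction, because the groups do not overlap. Rescaling the arrays could, and gave 0.28 under quantile normalization, 0.25 under median centring and 0.31 under cyclic loess. The other alternatives leave the difference at 0.33 by construction and can change only its error. Its unadjusted p in limma was not under 0.05 under quantile normalization or median centring. The same held without the dimmest 40% of genes and under eBayes with trend and robust. The difference was called in no alternative. The probe set does not separate the long from the short isoform. Between numbers it differed by −0.02 (SE 0.18).

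Bcl2l1 has 3 promoter windows in the RefSeq table, and the 2 with a match to the HIF-1 core are shown because this gene alone parted by genotype. Capitals mark GCGTG, or CACGC where the match lies on the other strand. They lie on the minus strand at chr2:152830668-152830967 and chr2:152831679-152831978.
Bcl2l1, middle window: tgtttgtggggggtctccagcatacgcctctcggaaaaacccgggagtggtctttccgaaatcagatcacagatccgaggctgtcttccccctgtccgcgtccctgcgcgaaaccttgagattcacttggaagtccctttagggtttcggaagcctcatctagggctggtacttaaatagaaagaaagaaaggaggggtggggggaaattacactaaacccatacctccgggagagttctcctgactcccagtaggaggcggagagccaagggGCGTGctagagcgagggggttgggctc
Bcl2l1, last window: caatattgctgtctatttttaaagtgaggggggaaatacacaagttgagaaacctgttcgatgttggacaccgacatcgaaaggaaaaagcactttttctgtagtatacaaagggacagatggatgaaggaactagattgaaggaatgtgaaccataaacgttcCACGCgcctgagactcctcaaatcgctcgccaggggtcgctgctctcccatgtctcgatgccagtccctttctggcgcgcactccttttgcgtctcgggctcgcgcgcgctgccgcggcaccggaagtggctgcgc
The search took ACGTG and GCGTG on both strands, and the letters CACGTG count once for each strand. At least 1 match was found in 8 of the 17 windows of the 10 listed genes (47.06%), against 43.77% of all 32851 windows of the table. Of the genes, 5 had a match in some window, namely Bcl2l1, Bcl2l11, Bmf, Bbc3 and Bax. A match is a run of letters, and binding was not measured.

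Bcl2l2, which encodes BCL-W, was lower in both arrays numbered 2 than in both numbered 1, but was not called. It read 9.28 and 8.79 in WT arrays 1 and 2, with 8.94 and 8.87 in those labelled Hif1a-/-. WT array 1 was the high one and the other 3 lay close together. It differed by −0.12 between genotypes (SE 0.20, 95% interval −0.69 to 0.44) and by −0.28 between numbers (SE 0.15, 95% interval −0.64 to 0.09), and neither difference passed. As a group, the 4 pro-survival genes therefore split between the numbers, with 1 called higher, 1 called lower and 2 not called.

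Bak1, the measured effector, followed the array number. BAK sits on the outer mitochondrial membrane and forms pores when activated. It read 10.74 and 11.25 in WT arrays 1 and 2, with 10.65 and 11.28 in those labelled Hif1a-/-, so both arrays numbered 2 were high. The rise was 0.57 log2 units (1.49-fold, SE 0.11, 95% interval 0.30 to 0.85, adjusted p = 0.0400 in limma), with 0.51 within WT and 0.63 within the group labelled Hif1a-/-. Between genotypes the groups overlapped and differed by −0.03 (SE 0.31, 95% interval −0.88 to 0.83). Of the 12 alternatives to the test between numbers 8 ended the Bak1 call in limma, among them genotype as a block (adjusted p = 0.0832), quantile normalization (0.0664), median centring (0.0752), cyclic loess (0.0615), every probe set tested (0.129), and eBayes with trend and robust (0.0817). The others were leaving out WT array 1 (0.328) or array 1 labelled Hif1a-/- (0.384).

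The BH3-only genes were higher in the mean in number 2, and none was called. Bcl2l11 encodes BIM, which sets off death when cytokines are withdrawn. It read 8.90 and 9.65 in WT arrays 1 and 2, with 9.14 and 9.59 in those labelled Hif1a-/-, with both arrays numbered 2 above both numbered 1. The difference was 0.60 log2 units (1.52-fold, SE 0.13, adjusted p = 0.0548 in limma), just over the threshold. It was called under quantile normalization (adjusted p = 0.0477) and cyclic loess (0.0375) in limma. With 1 array left out the Bcl2l11 difference ran from 0.48 to 0.72. Bmf, whose protein is held by the cytoskeleton in unstressed cells, read 9.09 and 9.45 in WT and 8.94 and 9.54 in the group labelled Hif1a-/-. Its arrays parted by number too, by 0.48 (SE 0.12, adjusted p = 0.0804 in limma). With 1 array left out the Bmf difference ran from 0.41 to 0.56.

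Bid and Bbc3 gave less even patterns. Bid, which links death receptors to mitochondria once caspase-8 has cut it, read 9.97 and 10.63 in WT arrays 1 and 2, with 10.07 and 10.09 in those labelled Hif1a-/-. WT array 2 alone was high, so that number 2 exceeded number 1 by 0.66 within WT and by 0.01 within the group labelled Hif1a-/-. With 1 array per combination this unevenness could not be tested. Over all arrays Bid differed by 0.34 between numbers (SE 0.19, adjusted p = 0.453 in limma), and by 0.07 to 0.61 with 1 array left out. Bbc3, which encodes the p53-induced protein PUMA, read 8.27 and 8.17 in WT and 8.00 and 8.23 in the group labelled Hif1a-/-. Array 1 labelled Hif1a-/- was the low one, and Bbc3 differed by 0.07 between numbers (SE 0.13, 95% interval −0.27 to 0.40). Between genotypes the 4 BH3-only genes differed by −0.21 (Bid) to 0.09 (Bcl2l11) with overlapping groups in each.

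**Figure D2:**
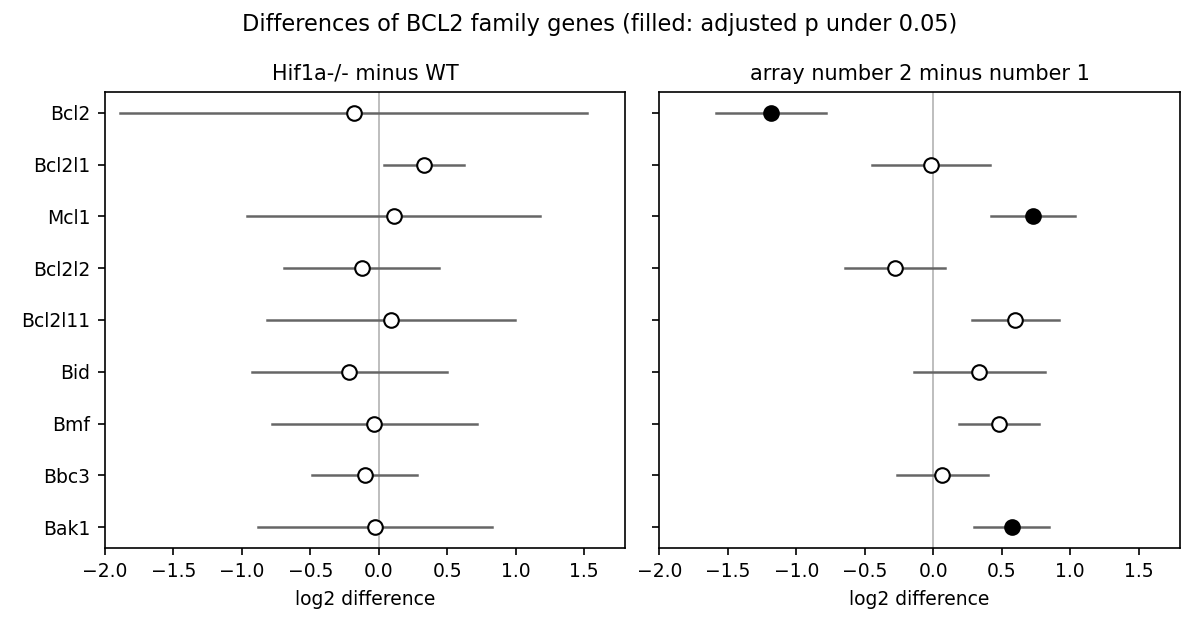
Log2 differences of the 9 BCL2 family genes (x axis) between genotypes (left) and array numbers (right), with 95% intervals from limma over 4 arrays. Filled points passed at an adjusted p under 0.05, which holds for Bcl2 (−1.19), Mcl1 (0.73) and Bak1 (0.57) between numbers and for no gene between genotypes.

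Set side by side, the 9 members had a median difference of −0.03 log2 units between genotypes and 0.34 between numbers, where all genes had 0.00 and −0.02. Between numbers the arrays did not overlap for 7 members, 5 higher and 2 lower in number 2, beside 20.4% of all genes higher, 27.2% lower and 47.6% in either direction. The sign of the number difference was the same in both genotypes for 8 of 9 members, Bbc3 being the exception. Among the 8, Bcl2l1 (−0.008 in WT) and Bid (0.01 in the group labelled Hif1a-/-) held values near 0. Over all genes, arrays of a number also deviated together from their genotype means (r = 0.669), and the share of genes with equal signs was not counted. Between genotypes the sign was the same within both numbers for 1 of 9, Bcl2l1. Intervals were wider between genotypes (median SE 0.27) than between numbers (0.13). The genotype fit had no term for array number, so differences between numbers entered its error. With a block for number, the genotype SE fell from 0.61 to 0.16 for Bcl2. It rose for Bcl2l1 (0.11 to 0.13) and Bbc3 (0.14 to 0.15) and fell for the other members.

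The rest of the cell death pathway was taken from lists of 61 further genes, of which 54 were measured. Between genotypes 0 of the 54 were called in limma, and 0 had an unadjusted p under 0.05. Between numbers 6 were called, 5 higher and 1 lower, beside 6.74% of all genes (3.81% higher and 2.93% lower). Of the 54, 15 had an unadjusted p under 0.05, beside 19.5% of all genes. With every probe set tested, each of these calls except that of Casp6 ended (adjusted p 0.0791 to 0.103 in limma). With the WT array numbered 1 left out, the same calls ended (0.0960 to 0.288). With array 1 labelled Hif1a-/- left out, Casp6 and Cycs stayed called and the rest did not (0.0521 to 0.189), and median centring ended Cycs (0.0555) and Foxo3 (0.0993). The median difference of the 54 was 0.03 between numbers and −0.05 between genotypes.

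Of 12 other BCL2 family genes, 2 were called, both higher in number 2. Pmaip1 encodes NOXA, a BH3-only protein that binds MCL1. It read 8.58 and 9.68 in WT arrays 1 and 2, with 8.86 and 9.67 in those labelled Hif1a-/-, a rise of 0.96 log2 units (SE 0.14, adjusted p = 0.0164 in limma). Bcl2l14 read 8.09 and 8.95 in WT and 8.05 and 9.25 in the group labelled Hif1a-/-, a rise of 1.03 (SE 0.14, adjusted p = 0.0137 in limma). Bcl2l12 and Bok were not called, with −0.19 and −0.22. Between genotypes Bok and Bcl2l15 differed by 0.22 and 0.11 and Bad by −0.10. The mitophagy gene Bnip3, a known target of HIF-1, differed by −0.35 (SE 0.22) with overlapping groups, and by 0.03 and −0.72 within numbers 1 and 2. The list's median was −0.03 between numbers and 0.05 between genotypes.

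The list of apoptosome and caspase genes, with the DNA fragmentation factors Dffa and Dffb, gave 3 calls of 8 between numbers, all higher in number 2. The apoptosome is the complex that activates caspases once cytochrome c leaves mitochondria. Casp6, an executioner caspase, read 9.47 and 10.80 in WT arrays 1 and 2, with 9.41 and 10.69 in those labelled Hif1a-/-. Its rise of 1.31 log2 units (SE 0.11, adjusted p = 0.00466 in limma) was called in each of the 12 alternatives. Cycs, which encodes cytochrome c, read 10.97 and 12.45 in WT and 11.39 and 12.26 in the group labelled Hif1a-/-, a rise of 1.17 (SE 0.17, adjusted p = 0.0180). Processed copies of Cycs in the mouse genome resemble it, so its signal may be shared. Apaf1, the scaffold of the apoptosome, also rose and is named after its values were seen. It read 10.29 and 11.00 in WT and 10.30 and 11.15 in the group labelled Hif1a-/-, a rise of 0.78 (SE 0.12, adjusted p = 0.0187 in limma).

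The initiator caspases of the same list did not pass. Casp8, which acts below death receptors, read 12.25 and 11.69 in WT arrays 1 and 2, with 12.43 and 11.91 in those labelled Hif1a-/-. It differed by −0.54 between numbers (SE 0.13, adjusted p = 0.0827 in limma) and Casp2 by −0.52 (SE 0.15, adjusted p = 0.119). Both arrays numbered 2 lay below both numbered 1 for either gene. Between genotypes Casp8 and Casp9 differed by 0.19 and 0.10, and Casp2 and Dffb by −0.12 and −0.09. The list's median was 0.17 between numbers and 0.05 between genotypes.

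Inhibitor of apoptosis proteins, their antagonists and the mitochondrial partners gave 0 calls of 14 between numbers. At an unadjusted p under 0.05 there were 3 in limma, Birc3 (0.59, SE 0.14), Birc5 (0.36, SE 0.14) and Vdac2 (0.40, SE 0.14), all higher in number 2. Birc3 is a ubiquitin ligase of NF-kB signalling, Birc5 (survivin) also acts in mitosis, and VDAC2 is known to hold BAK at mitochondria. Birc2, Birc6, Opa1 and Vdac1 differed by −0.31, −0.14, −0.04 and −0.04 between numbers, and Endog by 0.18. Between genotypes Birc5 and Xiap differed by 0.17 and 0.04, and Diablo, an antagonist of XIAP, by −0.21. Htra2, Vdac1 and Vdac3 differed by −0.13, −0.21 and −0.22. All 7 genes of the list of mitochondrial partners were lower in the mean in the group labelled Hif1a-/-. Their median was −0.11 (0.16 and −0.42 within numbers 1 and 2).

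Death receptor genes and regulators of the family gave 1 call, Foxo3, between numbers. Foxo3, a transcription factor known to switch on Bcl2l11 and Bbc3, read 11.26 and 10.58 in WT arrays 1 and 2, with 11.18 and 10.46 in those labelled Hif1a-/-. It fell by 0.70 log2 units in number 2 (SE 0.12, adjusted p = 0.0254 in limma), while Bcl2l11 was at 0.60 and Bbc3 at 0.07 in the same comparison. Stat5b, a mediator of cytokine signals, differed by −0.58 (SE 0.19) and the kinase gene Pim1 by 0.39 (SE 0.14), and neither was called. Akt1, Fasl, Tnfrsf1a, Cflar and Tnfrsf10b differed by 0.12, 0.13, 0.17, −0.18 and −0.28 between numbers.

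Foxo1 had the smallest unadjusted p of the pathway genes between genotypes (0.0541 in limma). It read 9.81 and 9.47 in WT arrays 1 and 2, with 10.18 and 10.02 in those labelled Hif1a-/-, a difference of 0.46 (SE 0.17). Foxo1 was not called. Its groups did not overlap, beside 16.1% of all genes higher and 8.33% lower without overlap. The groups of Fadd, Tnfrsf1a, Usp9x, Dynll2, Akt1 (−0.14), Fasl and Trp73 did not overlap either. In the other pathway lists the same held for Xiap, Dffb and Bnip3l. Of 8 death receptor genes 1 was higher and 2 lower without overlap. Of 12 regulators 2 were higher and 3 lower, beside 24.5% of all genes in either direction. Fadd, the adaptor of death receptors, differed by −0.26 (SE 0.12), Tnfrsf1a by −0.20, Usp9x, which spares MCL1 from degradation, by −0.21, and Dynll2, which binds BMF, by −0.20. Fas, Fasl and Trp73 differed by 0.23, 0.16 and 0.08.

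**Figure D3:**
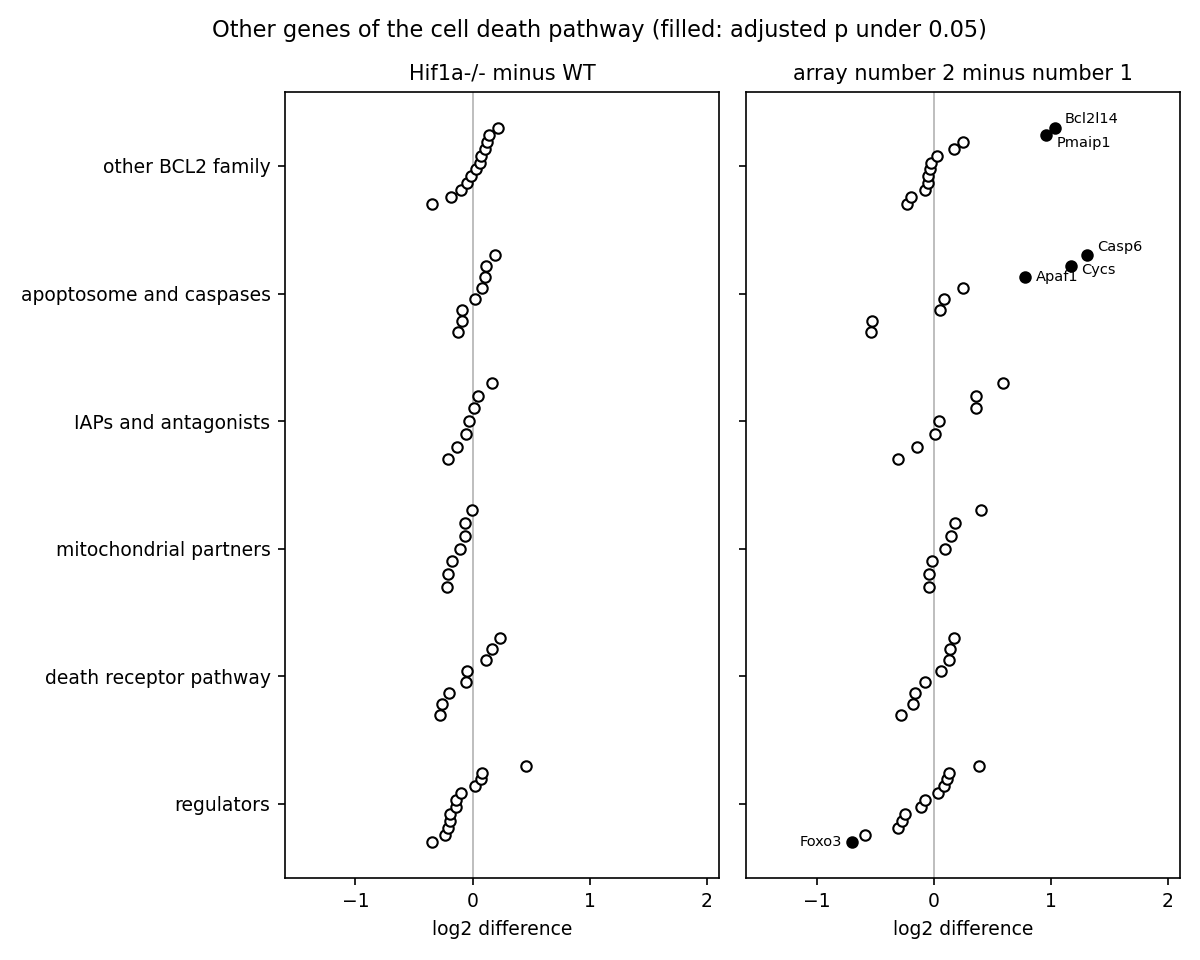
Log2 differences of 54 other cell death genes (x axis) in 6 lists (rows), between genotypes (left) and array numbers (right). Each point is 1 gene, ordered by its difference within the list, and filled points passed at an adjusted p under 0.05 in limma. The 6 filled points all lie in the comparison of numbers, from Casp6 at 1.31 to Foxo3 at −0.70.

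Marker lists of the sorted cells and of several other blood cell types also moved with the array number. For comparison with the counts below, 3.81% of all genes were called higher and 2.93% lower between numbers. Without overlap, 20.4% of all genes were higher and 27.2% lower in number 2. In the mean, 8886 of 19938 genes were higher and 11052 lower in number 2. Of 8 measured markers of the gate and of stem cells, 7 were lower in both arrays numbered 2 and 5 were called lower. Kit, a receptor that defines the gate, read 12.57 and 11.51 in WT arrays 1 and 2, with 12.37 and 11.32 in those labelled Hif1a-/-. Ly6a, the Sca-1 gene, was not analysed here. Of 11 neutrophil markers all were higher in number 2 and 8 were called, with summed signals of 15.24 and 14.97 in number 1 and 16.16 and 16.49 in number 2 on the log2 scale. Mast cell and basophil markers were higher for 6 of 7 (5 called), with sums of 12.83 and 13.05 against 14.13 and 14.23. Monocyte and macrophage markers were higher in the mean for 8 of 8, 7 of them without overlap (6 called). Their sums were 12.96 and 13.07 against 14.21 and 14.25. T and NK cell markers were higher in the mean for 9 of 9, 7 of them without overlap (2 called). Their sums were 10.90 and 10.92 against 11.57 and 12.25. B cell markers gave 0 calls in limma between numbers (1 at an unadjusted p under 0.05), with 8 of 9 lower in the mean and a median of −0.34. Erythroid and megakaryocyte markers split, with 3 higher and 3 lower in the mean and 1 called higher.

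These marker shifts run beside the lower Bcl2 and the higher Mcl1, Bak1, Pmaip1 and Casp6 in number 2, and their part in those differences was not tested. In such mixed samples, fewer cells of a type and less RNA per cell cannot be told apart. Lineage markers were meant to be removed by the gate, and RMA values have no zero and no detection call, so absence of a marker could not be read. Beside the Bcl2l1 difference between genotypes, 7 of 9 B cell markers were higher in both arrays labelled Hif1a-/- than in both WT arrays, though 0 were called in limma and 5 had an unadjusted p under 0.05, beside 16.1% and 0.727% of all genes. Their summed signals were 13.31 and 13.26 in WT and 14.57 and 13.85 in the group labelled Hif1a-/-, and their part in that difference was not tested. In the mean, 10095 of all genes were higher and 9843 lower in the group labelled Hif1a-/-. Erythroid and megakaryocyte markers, 6 of 9 measured, were lower in the mean for all 6, with overlapping groups and a median of −0.28. Within numbers 1 and 2 their medians were 0.001 and −0.43. Their sums were 12.06 and 12.02 in WT and 12.00 and 11.56 in the group labelled Hif1a-/-. Gate and stem cell markers were lower in the mean for 8 of 8, with overlapping groups and a median of −0.34 (−0.18 and −0.45 within numbers 1 and 2). T and NK cell markers were higher in the mean for 9 of 9, 2 of them without overlap. Their median was 0.23 (0.04 and 0.52 within numbers 1 and 2). Neutrophil, mast cell and monocyte lists had 7 of 11, 5 of 7 and 6 of 8 higher in the mean, with overlapping groups throughout. Their medians within numbers 1 and 2 were −0.22 and 0.91, 0.28 and −0.04, and 0.30 and −0.14.

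**Figure D4:**
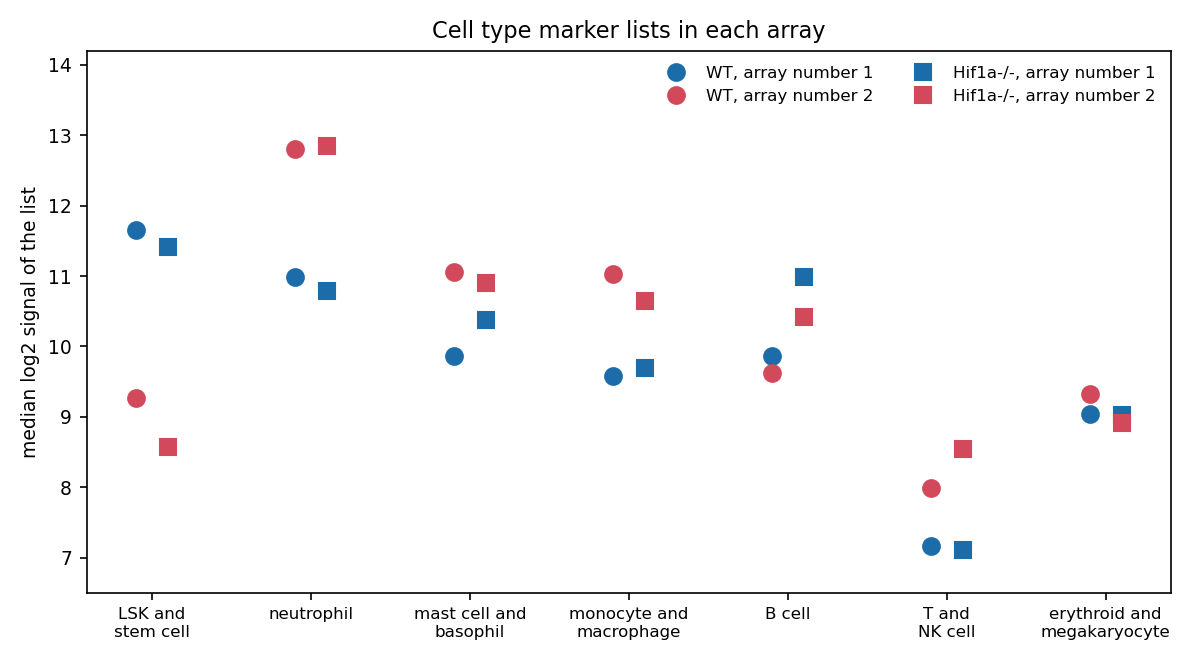
Median log2 signal (y axis) of 7 cell type marker lists (x axis) in each of the 4 arrays. Circles are WT and squares are labelled Hif1a-/-, coloured by array number. The LSK (Lin-c-Kit+Sca-1+) and stem cell list is lower and the neutrophil, mast cell and monocyte lists are higher in both arrays numbered 2.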

How the data were processed

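The deposited table holds log2 signals of 35556 probe sets on 4 arrays. Per the submitters' processing notes, the authors made them by RMA in Affymetrix Expression Console 1.1. RMA equalizes probe signals across arrays, so a change common to all genes is lost. Medians over all probe sets still ran from 8.191 (WT array 2) to 8.354 (array 2 labelled Hif1a-/-). The log base was read from the range of values. No genome build is named in the sources used here, and 0 columns belonged to other samples. Probe sets with 1 symbol in the platform annotation (21789) were used, keeping for each gene the one with the highest mean, which left 19938 genes. The members and lists were chosen with earlier results of these data known.

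Tests, all two-sided, were run with limma 3.58.1 in R 4.3.3 (lmFit, eBayes, no covariates), once for genotype and once for array number, with Benjamini-Hochberg adjustment over all genes. The steps were tested on simulated data in which arrays varied independently, which these arrays did not. Genes outside the set were named by a rule, at most 2 per list, direction and comparison with the smallest p. The closing section gives the alternatives. The p-values measure the spread between these arrays, and 4 arrays limit the precision. Proteins were not used here.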

Additional observations from a re-analysis of the deposited data

How the results depend on the processing

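Between genotypes 0 genes were called by limma in each of the 12 alternatives, with 39 to 692 at an unadjusted p under 0.05 and 145 in the reported fit. With a block for replicate number, 0 genes were called between genotypes (478 at an unadjusted p under 0.05) and no member's call changed. The arrays of a number deviated together from their genotype means (r = 0.669 across genes), but with 2 numbers this does not show pairing. Between numbers 1344 genes were called, and 319 to 4661 with 1 array left out. Leaving out a number 1 array gave 319 (WT) and 458 (labelled Hif1a-/-), and leaving out a number 2 array gave 4661 (WT) and 4602 (labelled Hif1a-/-). The lone array of a number is then assumed to vary like the others. Median centring gave 667, and 335 were called with every probe set tested. The cause was not tested.

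With 1 array left out, genotype differences that changed sign ranged from −0.89 to 0.52 for Bcl2, −0.31 to 0.53 for Mcl1, −0.37 to 0.12 for Bcl2l2, −0.28 to 0.46 for Bcl2l11, −0.54 to 0.11 for Bid, −0.33 to 0.27 for Bmf, −0.22 to 0.011 for Bbc3, −0.34 to 0.29 for Bak1, −0.085 to 0.47 for Casp8, −0.044 to 0.25 for Casp9, −0.50 to 0.25 for Casp2, −0.066 to 0.40 for Birc5, −0.51 to 0.24 for Htra2, −0.0099 to 0.47 for Fas and −0.38 to 0.23 for Hif1a. With 1 array left out, number differences that changed sign ranged from −0.19 to 0.15 for Bcl2l1, −0.068 to 0.20 for Bbc3, −0.030 to 0.39 for Endog, −0.20 to 0.12 for Opa1 and −0.31 to 0.22 for Vdac1. Quantile normalization turned the sign, to 0.033 (Bak1, genotypes), −0.011 (Bcl2l15, genotypes), −0.020 (Trp73, genotypes) and 0.028 (Bcl2l1, numbers). Cyclic loess turned the sign, to 0.064 (Bak1, genotypes), 0.012 (Hif1a, genotypes) and 0.042 (Bcl2l1, numbers). Median centring turned the sign, to −0.044 (Xiap, genotypes), −0.0077 (Trp73, genotypes), 0.029 (Bcl2l1, numbers), 0.00060 (Opa1, numbers) and 0.0019 (Vdac1, numbers). None of these was called in the reported fit. The cause was not tested.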
